A study of Homo sapiens with 8 samples.

Results

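The 10 genes described here encode the subunits of the transcription factor NF-kB and its feedback inhibitors, among which NFKBIZ is listed although its protein also acts as a coactivator. They are NFKB1, NFKB2, RELA, RELB, REL, NFKBIA, NFKBIE, NFKBIZ, TNFAIP3 and TNIP1, taken by symbol as 10 of the 57736 Ensembl gene IDs listed for all 8 libraries. All libraries came from IMR90 cells, a line of human fetal lung fibroblasts. In the RNA-seq experiment, 1 library of cells with knockdown (KD) of ADAR1 stood beside 1 control (Ctrl) library, both from DNase-treated total RNA. In the RNA immunoprecipitation experiment, cells with shADAR1, cells with shHuR and cells with shControl each gave 1 library precipitated with an anti-HuR antibody and 1 input library without antibody. ADAR1 turns adenosines of double-stranded RNA into inosines. HuR, encoded by ELAVL1, is an RNA-binding protein that favours stretches rich in U and A. The series asks, from its title, how loss of ADAR1 bears on p16INK4a and senescence. The hairpin sequences, the number of clones, the time after knockdown and whether both experiments used the same ADAR1 hairpin are unknown from the labels, and there was no mock precipitate. Each group held 1 library, so a difference between a pair of libraries has no replicate check, and its interval covers counting error only.

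NF-kB works as a dimer of Rel proteins that is held in the cytoplasm by inhibitors of the IkB family. Signals from cytokine and pattern receptors activate the IKK kinases, the IkB protein is degraded, and the freed dimer enters the nucleus and switches on genes for cytokines, chemokines and its own inhibitors. In senescent fibroblasts this factor is known for driving the secreted inflammatory proteins of the senescence-associated secretory phenotype.

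The inhibitor genes are textbook targets of the factor they inhibit, so the DNA sequence before their start sites is shown first, beside that of the subunit genes. RefSeq promoter windows (build GRCh38.p14, 250 bases before to 50 after each annotated start) were at hand for 8 of the 10 genes and were searched on both strands for the 10-base kB consensus. A match was found in 7 of these 8 genes, against 13.25% of the 27305 genes with a window, and by window the share was 11.27% of 35116. RELA held none in its windows. The match nearest the start site is printed for each gene in capitals, on the strand of the gene, with 10 bases on each side. REL and NFKB2 each also had matches that overlap by all but 1 base, NFKB2 and TNFAIP3 held further matches that are not printed, and the other NFKBIZ match is in the second long stretch. A match to the opposite strand is given as read on the gene's strand.
NFKB1, chr4:102501300-102501329, plus strand: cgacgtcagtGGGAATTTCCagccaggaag
NFKB2, chr10:102395674-102395703, plus strand: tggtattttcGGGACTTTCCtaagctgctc
REL, chr2:60881518-60881547, plus strand: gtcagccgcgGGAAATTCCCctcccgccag
NFKBIA, chr14:35404811-35404840, minus strand: tgactggcttGGAAATTCCCcgagcctgac
NFKBIZ, chr3:101827757-101827786, plus strand: tttttggtctGGGAATTTCCagtgtgcaga
TNFAIP3, chr6:137867194-137867223, plus strand: aaagtcccgtGGAAATCCCCgggcctacaa
TNIP1, chr5:151081057-151081086, minus strand: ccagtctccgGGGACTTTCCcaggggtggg
NFKBIZ had the largest ratio of highest to lowest CPM over the inputs among the 10 genes, and the 250 bases before both of its annotated start sites are given whole. Each of the stretches holds 1 match, in capitals.
NFKBIZ, chr3:101827740-101827989, plus strand: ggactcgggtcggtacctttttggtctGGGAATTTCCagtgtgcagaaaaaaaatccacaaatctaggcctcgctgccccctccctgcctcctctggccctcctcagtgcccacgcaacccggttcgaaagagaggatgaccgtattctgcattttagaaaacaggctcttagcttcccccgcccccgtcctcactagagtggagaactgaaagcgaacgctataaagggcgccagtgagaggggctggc
NFKBIZ, chr3:101849264-101849513, plus strand: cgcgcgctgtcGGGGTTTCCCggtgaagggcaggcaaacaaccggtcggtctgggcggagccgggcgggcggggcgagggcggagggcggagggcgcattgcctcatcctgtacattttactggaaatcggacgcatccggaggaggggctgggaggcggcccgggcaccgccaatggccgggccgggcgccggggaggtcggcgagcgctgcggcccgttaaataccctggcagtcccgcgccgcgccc
A match describes letters in these windows and says nothing of whether NF-kB sat there in these cells.

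HuR recovery was measured on the RNA, so short stretches of the 3′ untranslated regions (UTRs) are shown as well, from GENCODE 29 transcripts and in DNA letters. Each is a 30-base place chosen for its copies of ATTTA, the core of AU-rich elements, in capitals. REL and NFKBIZ were recovered above input, NFKB1 and TNFAIP3 near it, and NFKBIA below it.
REL, bases 1706 to 1735 of the 3′ UTR: ttactaagtATTTAttcATTTActgtttgt
NFKBIZ, bases 108 to 137 of the 3′ UTR: atgaaacaaacatATTTAgttcactattat
NFKB1, bases 111 to 140 of the 3′ UTR: tgaatcattctcgATTTAactcgagacctt
TNFAIP3, bases 978 to 1007 of the 3′ UTR: tgtaattcactttATTTAttttattacaaa
NFKBIA, bases 74 to 103 of the 3′ UTR: aaaagaagaaaaaATTTAaagggtgtactt

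Libraries held 28390935 to 50711218 counts. The targeted genes followed the labels: ADAR had 1445 counts in KD and 7732 in Ctrl (log2 ratio −2.81) and 3142 in the shADAR1 input and 12890 in the shControl input (−1.56), and ELAVL1 had 674 in the shHuR input and 4806 in the shControl input (−2.73). Fibroblast markers were all above 0 in every library, with summed levels of 2454 to 12308 CPM (counts scaled to equal library totals). Summed leukocyte markers reached at most 47.4 CPM, epithelial markers 15.3 and endothelial markers 11.3, and CD3E, SFTPC, KRT5 and CDH5 were at 0 throughout. These marker sums were 47.4, 15.3 and 11.3 CPM in KD and 44.3, 14.4 and 1.99 CPM in Ctrl, and their part in the results below was not tested.

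Knockdown of ADAR1 in the RNA-seq experiment came with lower REL and lower TNFAIP3, and no member was called higher. A gene was called when TMM-scaled counts (scaled by the trimmed mean of M values) differed by at least 2-fold and one library held at least 50 counts. By that rule 2 of the 10 genes were lower and 0 higher, against 7.71% lower and 8.31% higher of the 13235 genes with enough counts. The members' median log2 ratio was −0.35, and that of all genes was −0.01. In bulk RNA, fewer cells of a type and less RNA per cell cannot be told apart.

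**Figure D1:**
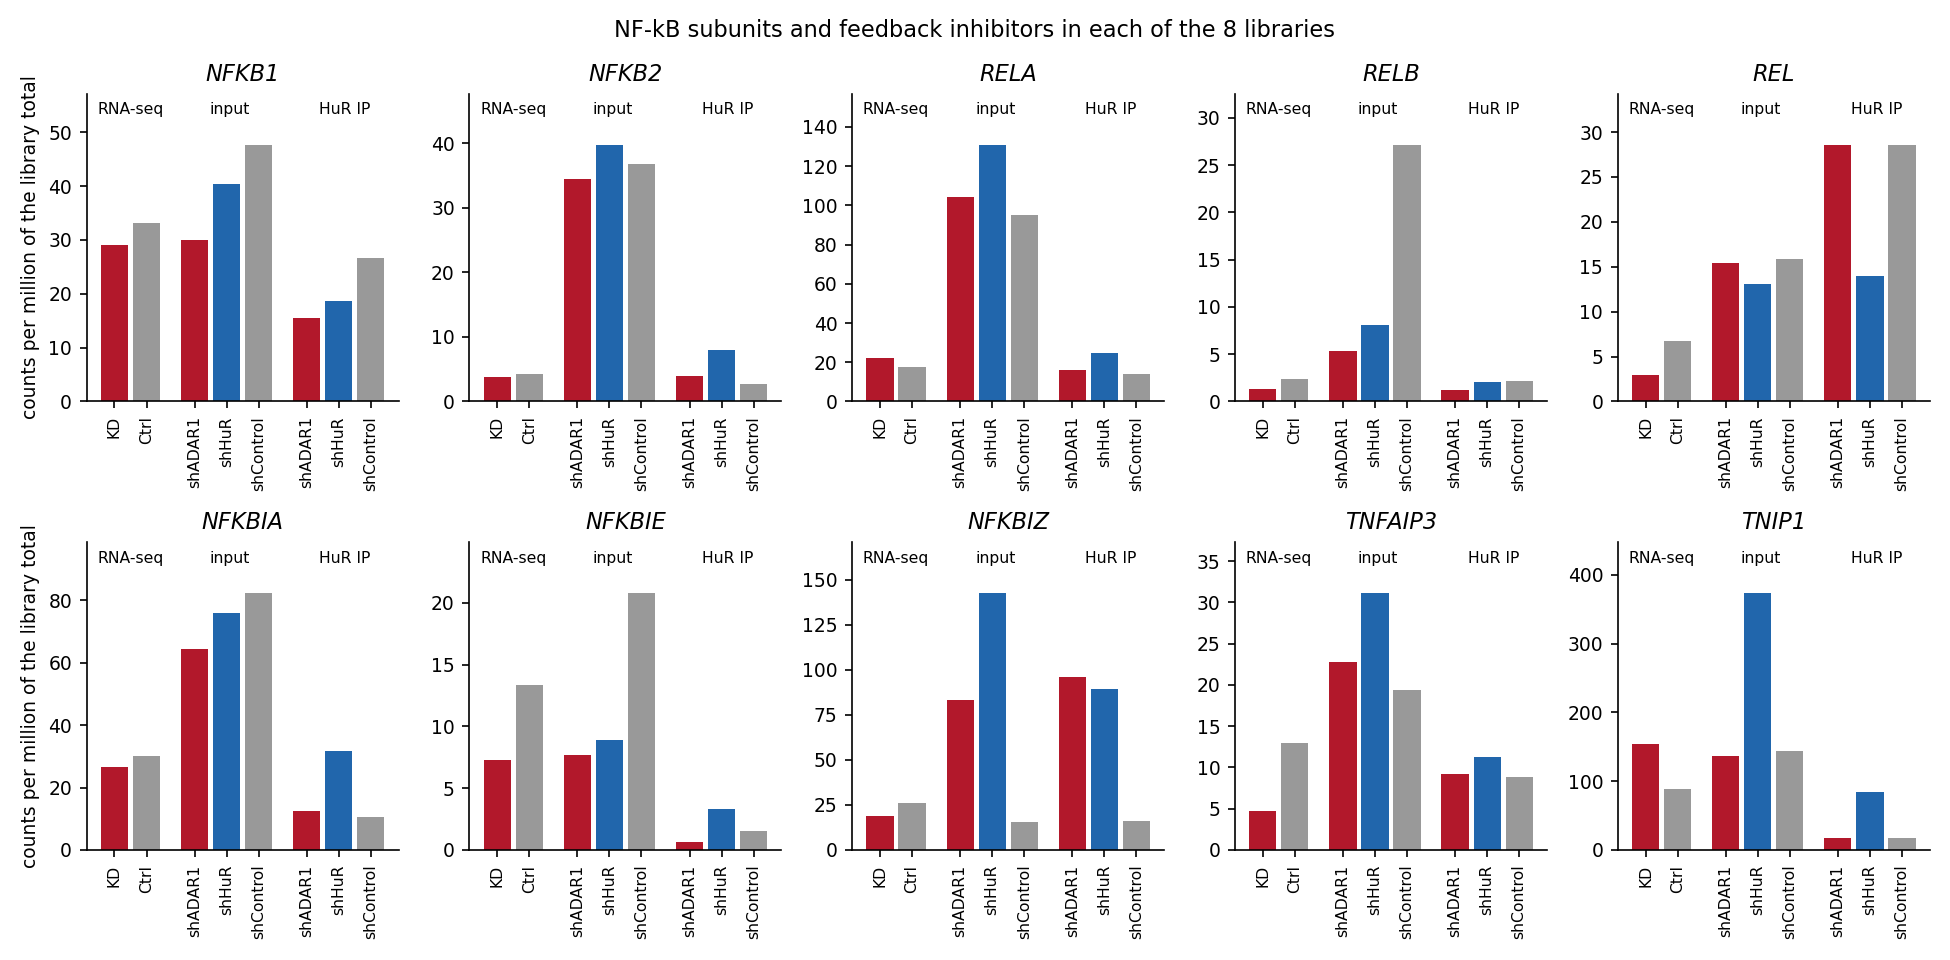
Level of each of the 10 genes in each of the 8 libraries, as bars of CPM of the library total (vertical axis, from 0 and on a separate scale for each gene). NFKBIZ stands at 83.2 and 142.6 CPM in the shADAR1 and shHuR inputs and at 15.5 in the shControl input, while RELB stands at 5.39 and 8.09 CPM there and at 27.2 in shControl.

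Among the subunits, REL (ENSG00000162924, chromosome 2; c-Rel, a subunit that activates transcription and is best known from lymphocytes) had 148 counts in KD and 266 in Ctrl. This was 2.35-fold lower, with a log2 ratio of −1.24 (95% interval −1.54 to −0.94). REL's exons overlap those of AC010733.2 over 43.3% of their length, in a search that took both strands, so part of its reads could belong to either gene. AC010733.2 itself had 35 counts in KD and 18 in Ctrl. The REL ratio was −0.70 once a trend with GC content and transcript length was taken out, and −0.59 on the deposited FPKM values plus 0.1, so the call did not hold under either.

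RELB (ENSG00000104856, chromosome 19), the partner of p52 in the non-canonical pathway, had 66 counts in KD and 94 in Ctrl (log2 −0.90, −1.38 to −0.43), which did not reach the 2-fold limit. RELA (ENSG00000173039, chromosome 11; p65, the main activating subunit) had 1134 counts in KD and 695 in Ctrl (log2 0.32). The precursor genes moved little: NFKB1 (ENSG00000109320, chromosome 4), which encodes p105 and p50, had 1477 counts in KD and 1298 in Ctrl (−0.20). NFKB2 (ENSG00000077150, chromosome 10), which encodes p100 and p52, had 193 counts in KD and 168 in Ctrl (−0.19), and its interval of −0.50 to 0.12 includes no change. KD had the larger total, so a gene can hold more counts there and still have a ratio below 0.

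Among the inhibitors, TNFAIP3 (ENSG00000118503, chromosome 6; A20, a ubiquitin-editing enzyme that shuts off signalling to IKK) had 240 counts in KD and 510 in Ctrl. It was 2.78-fold lower (log2 −1.48, −1.70 to −1.25), and the ratio was −1.55 with the GC and length trend removed and −1.21 on FPKM. TNIP1 (ENSG00000145901, chromosome 5; ABIN1, a ubiquitin-binding partner of A20) had 7819 counts in KD and 3451 in Ctrl (log2 0.79, 0.73 to 0.85), below the 2-fold limit. The A20 gene and the gene of its partner thus stood on opposite sides of 0 in this pair.

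NFKBIE (ENSG00000146232, chromosome 6; IkB epsilon, a cytoplasmic inhibitor) had 371 counts in KD and 522 in Ctrl (log2 −0.88, −1.08 to −0.69). NFKBIZ (ENSG00000144802, chromosome 3; IkB zeta, a nuclear IkB protein that acts as a coactivator on a subset of NF-kB targets) had 960 counts in KD and 1030 in Ctrl (−0.49, −0.62 to −0.36). NFKBIA (ENSG00000100906, chromosome 14; IkB alpha, the inhibitor that is resynthesised first) had 1345 counts in KD and 1184 in Ctrl (−0.21, −0.32 to −0.09). None of these 3 IkB genes reached the 2-fold limit. Taking out the trend with GC content and length brought NFKBIE to −1.14 and RELB to −1.24, past that limit, so that 3 members (RELB, NFKBIE and TNFAIP3) were then lower.

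Deposited FPKM values (fragments scaled to transcript length and library depth) allow levels to be compared between genes in this experiment. TNIP1 was the most abundant, at 82.64 FPKM in KD and 47.74 in Ctrl. NFKBIA, NFKB1 and RELA followed in KD at 19.86, 17.89 and 16.06 FPKM, against 23.72, 18.83 and 12.21 in Ctrl. RELB and REL were lowest, at 0.94 and 0.95 FPKM in KD and 1.51 and 1.48 in Ctrl, and values this close cannot be ordered with 1 library a group. The remaining 4 genes lay between 1.9 and 9.94 FPKM in KD and between 2.05 and 16.21 in Ctrl.

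In the inputs of the precipitation experiment NFKBIZ was far higher in both knockdown lines, and RELB and NFKBIE were lower by more than 2-fold in both. In shADAR1 cells 1 member was higher and 2 were lower, against 8.94% higher and 10.6% lower of 13192 genes. In shHuR cells 2 were higher and 2 lower, against 12.0% and 15.9% of 13390 genes. The members' median log2 ratio was 0.02 in shADAR1 and 0.03 in shHuR, and that of all genes −0.04 and −0.03. Both comparisons use the same shControl input, so an unusual level in that 1 library would enter both.

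NFKBIZ had 2361 counts in the shADAR1 input and 4970 in the shHuR input, against 568 in the shControl input. It was 5.77-fold higher in shADAR1 (log2 2.53, 2.40 to 2.66) and 9.38-fold higher in shHuR (3.23, 3.10 to 3.36). The 95th percentile of all genes was 1.43 in shADAR1 and 1.67 in shHuR, so NFKBIZ lay beyond it in both. Between the knockdown lines, NFKBIZ was 1.63-fold higher in shHuR than in shADAR1.

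RELB had 153 counts in the shADAR1 input and 282 in the shHuR input, against 997 in the shControl input. It was 4.70-fold lower in shADAR1 (log2 −2.23, −2.49 to −1.99) and 3.30-fold lower in shHuR (−1.72, −1.92 to −1.53). NFKBIE had 218 and 310 counts in the shADAR1 and shHuR inputs and 763 in the shControl input, which made it 2.52-fold lower in shADAR1 (−1.34) and 2.30-fold lower in shHuR (−1.20). With the GC and length trend removed, RELB stood at −1.67 in shADAR1 and −0.97 in shHuR, and NFKBIE at −0.96 and −0.68, so that only RELB in shADAR1 still passed 2-fold among these 4 values. NFKBIZ kept 2.37 and 3.14 under the same correction.

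TNIP1 had 3871 counts in the shADAR1 input and 13006 in the shHuR input, against 5282 in the shControl input. It was level in shADAR1 (log2 0.02, −0.04 to 0.08) and 2.64-fold higher in shHuR (1.40, 1.35 to 1.45), or 2.6-fold higher in shHuR than in shADAR1. TNFAIP3 had 645 and 1084 counts in the shADAR1 and shHuR inputs and 712 in the shControl input, with log2 ratios of 0.33 in shADAR1 and 0.71 in shHuR that stayed under 2-fold. The interval of TNIP1 in shADAR1 includes 0, and its ratio there was −0.08 with scaling by total counts.

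The remaining members stayed within 1.5-fold. RELA had 2962 and 4561 counts in the shADAR1 and shHuR inputs and 3484 in the shControl input (log2 0.24 in shADAR1, 0.49 in shHuR). NFKB1 had 850 and 1405 counts in shADAR1 and shHuR and 1750 in the shControl input (−0.57 and −0.22), and NFKBIA had 1830 and 2648 counts and 3020 in the shControl input (−0.25 and −0.09). NFKB2, with 976, 1385 and 1347 counts in shADAR1, shHuR and shControl, had ratios of 0.01 and 0.14. REL, with 437, 455 and 582 counts in the same order, had ratios of 0.06 (interval −0.12 to 0.24) and −0.25, and AC010733.2, which overlaps it, had 28, 95 and 0 counts.

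**Figure D2:**
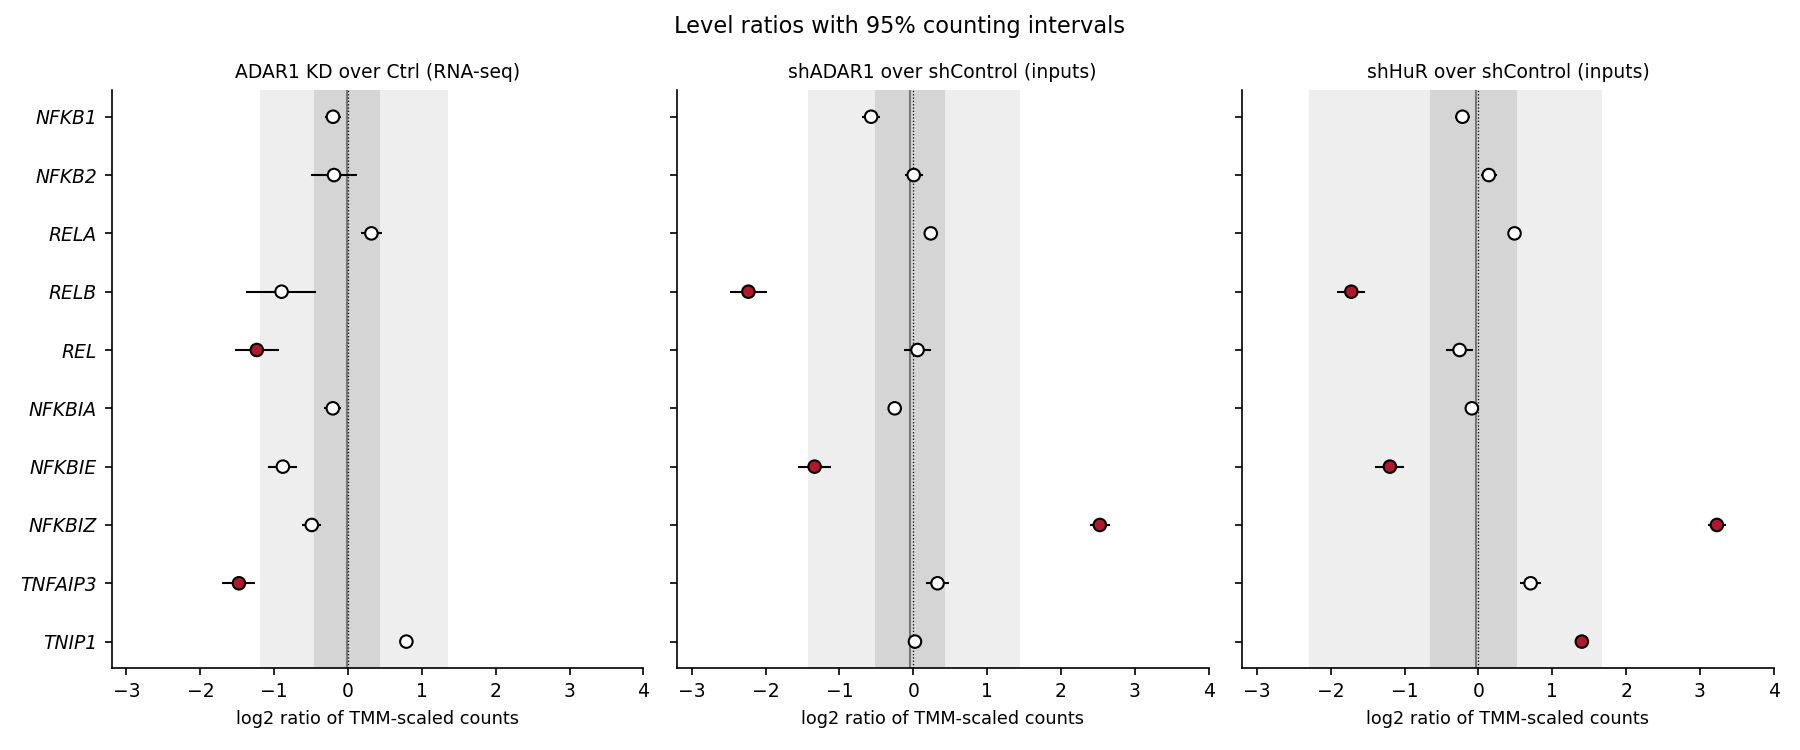
Log2 ratios of TMM-scaled counts for the 10 genes in KD over Ctrl of the RNA-seq, shADAR1 over shControl inputs and shHuR over shControl inputs, with lines for the 95% counting interval and filled points for genes called at 2-fold. Dark grey bands run between the quartiles of all genes with enough counts, light grey bands from their 5th to their 95th percentile, and the grey line is their median. NFKBIZ stands at 2.53 and 3.23 in the inputs and at −0.49 in the RNA-seq.

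Set against transcript length, TNIP1 had 50.99, 132.4 and 50.16 CPM per kilobase of its principal transcript in the shADAR1, shHuR and shControl inputs. It led in both knockdown lines and stood beside NFKBIA, at 51.26, in shControl. NFKBIZ stood at 22.1 and 35.9 CPM per kilobase in shADAR1 and shHuR and at 3.83 in shControl, where it was the lowest but for REL. REL was lowest in every input, at 1.42, 1.15 and 1.37 CPM per kilobase in shADAR1, shHuR and shControl. RELB was next in shADAR1, at 2.45, while in shHuR its 3.49 and the 3.41 of NFKBIE stood side by side.

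The ADAR1 knockdown comparisons of the 2 experiments were joined in 1 fit with the experiment as block, using the quasi-likelihood test of edgeR over 15994 genes. By edgeR 0 members passed an adjusted p of 0.05 in either direction, against 0.0813% of all genes higher and 0.0125% lower. DESeq2 also called 0 members, and 2 had an unadjusted edgeR p under 0.05. RELB was lower in both experiments, with a joint log2 change of −1.58 ± 0.56 (SE, 4 libraries; edgeR adjusted p = 0.826). NFKBIE was likewise lower in both, at −1.11 ± 0.47 (SE, edgeR adjusted p = 0.98). This fit had 1 residual degree of freedom and a common dispersion of 0.15, and 761 of all genes had an unadjusted p under 0.05.

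NFKBIZ and TNFAIP3 went opposite ways in the experiments. NFKBIZ was at −0.49 in KD over Ctrl and at 2.53 in shADAR1 over shControl, and the joint change was 1.02 ± 0.69 (SE, 4 libraries; edgeR adjusted p = 1). TNFAIP3 was at −1.48 and 0.33 in the same comparisons, with a joint change of −0.57 ± 0.54 (edgeR adjusted p = 1). With 1 library on each side, the difference between the experiments was not tested.

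Upstream and downstream genes of the pathway were counted by the same rule, beside all-gene shares of 8.94% higher and 10.6% lower in the shADAR1 input, 12.0% and 15.9% in the shHuR input, and 8.31% and 7.71% in KD. Of 22 textbook NF-kB target genes, 9 of the 16 with enough counts were higher and 0 lower in the shADAR1 input, 11 of 18 were higher and 0 lower in the shHuR input, and 1 of 13 was higher and 3 lower in the RNA-seq KD. CXCL8 (interleukin 8, a neutrophil attractant) had 139 counts in KD and 19 in Ctrl, and in the inputs it had 4136 in shADAR1 and 24392 in shHuR, against 26 in shControl. CXCL1, of the same chemokine family, had 3260 and 4142 counts in the shADAR1 and shHuR inputs and 16 in the shControl input. Target genes lower in KD included PTX3 (a secreted pattern receptor, 1114 counts in KD and 4094 in Ctrl) and LIF (a cytokine of the interleukin 6 family, 408 in KD and 1417 in Ctrl). The targets' median log2 ratio was 1.248 in the shADAR1 input, 1.96 in the shHuR input and −0.39 in KD. In the shControl input CXCL1, CXCL8, CXCL3 and CXCL2 had only 16, 26, 10 and 9 counts. CCL20 and CSF2, called higher in shHuR, had 0 and 4 there. Such genes met the 50-count rule only through the knockdown library, as CXCL8 did in KD. They could not be called lower, and they raise the counts and medians given here.

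The upstream steps were counted by role against the same all-gene shares, and 1 gene of 8 is close to them. Of 15 receptors and ligands, 1 of 8 was higher and 1 lower in the shADAR1 input, 4 of 10 higher and 1 lower in the shHuR input, and 2 of 7 higher and 0 lower in KD. The ligand gene IL1A (interleukin 1 alpha) had 206 counts in the shHuR input and 1 in the shControl input (interval of the log2 ratio 5.29 to 13.1), and IL1B had 543 in shHuR and 49 in shControl. IL1A, IL1B and TLR4 (119 counts in shHuR, 0 in shControl) met the 50-count rule only through the shHuR input. TNFSF13B, higher in KD (112 counts, 24 in Ctrl), met it only through KD. These genes could not be called lower there, which raises the counts of genes called higher. Of 18 adaptors and kinases before IKK, 0 were higher and 1 lower in the shADAR1 input, 0 higher and 3 lower in the shHuR input, and 1 higher and 4 lower in KD. BIRC3 (cIAP2, a ubiquitin ligase of the TNF receptor complex) had 140 counts in KD and 789 in Ctrl. IRAK1, a kinase of the interleukin 1 receptor pathway, had 10729 counts in KD and 3046 in Ctrl, but 2767 in the shADAR1 input and 3814 in the shHuR input against 10277 in the shControl input.

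Of the 8 measured genes of the IKK complexes and the linear ubiquitin ligase, 0 were higher and 1 lower in each knockdown input, where 10.6% (shADAR1) and 15.9% (shHuR) of all genes were lower, and 1 was higher and 0 lower in KD, where 8.31% were higher. MAP3K14 (NIK, the kinase of the non-canonical pathway) had 116 counts in the shHuR input and 605 in the shControl input, and 179 in KD against 67 in Ctrl. Of the other inhibitors, 0 of 13 were called in the shADAR1 input, 1 was higher and 3 lower of 13 in the shHuR input, and 1 of 12 was higher in KD. That 1 was TNIP3, a relative of TNIP1, with 66 counts in KD and 10 in Ctrl, while BCL3, a nuclear IkB protein, had 380 counts in the shHuR input and 1276 in the shControl input. TNIP3 met the 50-count rule only through KD. MAP3K8, lower in the shADAR1 input (30 counts, 107 in shControl), met it only through shControl. The same held for NFKBID, lower in the shHuR input (32 counts, 72 in shControl). In the joint edgeR fit 0 of the 65 genes tested from these 5 lists passed an adjusted p of 0.05 in either direction, 9 had an unadjusted p under 0.05, and DESeq2 called 2, CXCL8 and CXCL1.

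Recovery with the antibody against HuR separated the members. REL and NFKBIZ were above input, NFKB1 and TNFAIP3 were near it, and NFKB2, RELA, RELB, NFKBIA, NFKBIE and TNIP1 were below it. In the edgeR test over the 3 lines with the line as block (6 libraries, 2 residual degrees of freedom, common dispersion 0.0983), 2 members were higher in the precipitate and 6 lower at an adjusted p under 0.05, against 31.3% higher and 32.7% lower of 15342 genes. Their median log2 change was −1.42, and that of all genes −0.11. By line, 2 members were at least 2-fold higher and 6 lower in shADAR1, 1 higher and 3 lower in shHuR, and 1 higher and 6 lower in shControl. The shares of all genes were 30.0% higher and 37.5% lower in shADAR1, 25.5% and 25.4% in shHuR, and 30.7% and 38.4% in shControl.

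REL had 1274, 407 and 1112 counts in the shADAR1, shHuR and shControl precipitates, against 437, 455 and 582 in the inputs of the same lines. Its log2 enrichment was 1.76 (1.60 to 1.92) in shADAR1, 1.09 (0.90 to 1.29) in shHuR and 1.72 (1.58 to 1.87) in shControl, and 1.58 ± 0.31 over the lines (SE; edgeR adjusted p = 0.00143, higher in 3 of 3 lines). AC010733.2 had 136, 86 and 68 counts in the same precipitates. Without the shADAR1 line the REL estimate was 1.23 and no longer passed, and with the GC and length trend removed the enrichment was 0.39 in shADAR1, −0.13 in shHuR and 0.15 in shControl. That trend is fitted to the precipitate over input ratios of all genes. Removing it therefore also takes out any HuR recovery that goes with base composition or length, here and for the genes below. What part of the loss is of that kind was not tested.

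NFKBIZ had 4295, 2606 and 621 counts in the shADAR1, shHuR and shControl precipitates, against 2361, 4970 and 568 in the inputs. Its log2 enrichment was 1.07 in shADAR1, 0.32 in shHuR and 0.92 in shControl, and 0.83 ± 0.27 over the lines (SE; edgeR adjusted p = 0.0212, higher in 3 of 3 lines). The call ended without the shADAR1 line (0.44), without the shControl line (0.76) and without the line as block (0.73). With the GC and length trend removed the enrichment was 0.55, −0.29 and 0.29 in shADAR1, shHuR and shControl.

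NFKB1 had 694, 547 and 1035 counts in the shADAR1, shHuR and shControl precipitates, against 850, 1405 and 1750 in the inputs. Its log2 enrichment lay between −0.11 and 0.03 in the 3 lines (edgeR adjusted p = 0.993). TNFAIP3 had 410, 328 and 345 counts in the precipitates, against 645, 1084 and 712 in the inputs, and its enrichment was −0.44, −0.47 and −0.26 in shADAR1, shHuR and shControl (edgeR adjusted p = 0.348). With the GC and length trend removed, TNFAIP3 stood at −1.05, −1.22 and −0.76 in shADAR1, shHuR and shControl, and NFKB1 at −0.50, −0.71 and −0.28. TNFAIP3 was then past 2-fold below input in shADAR1 and shHuR. The correction also shifted the median of all genes, by −0.29 in shADAR1, −0.41 in shHuR and −0.24 in shControl. TNFAIP3 and NFKB1 moved down by more than that shift in every line, a difference that was not tested. Both genes hold ATTTA copies in the 3′ UTR, as the printed stretches show.

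Of the genes below input, NFKBIE had the fewest counts in the shADAR1 and shControl precipitates, and RELB in that of shHuR. NFKBIE had 28, 98 and 61 counts in the shADAR1, shHuR and shControl precipitates against 218, 310 and 763 in the inputs. Its log2 ratio was −2.75 in shADAR1 and −0.41 in shHuR, against −2.85 in shControl. RELB had 56, 61 and 84 counts in the precipitates and 153, 282 and 997 in the inputs, with log2 ratios of −1.24, −0.96 and −2.78 in shADAR1, shHuR and shControl. NFKB2 had 174, 232 and 108 counts in the precipitates and 976, 1385 and 1347 in the inputs, with ratios of −2.28, −1.33 and −2.85. NFKBIE and NFKB2 were nearest to input in shHuR cells, while the intervals of RELB in shADAR1 (−1.71 to −0.79) and shHuR (−1.38 to −0.55) overlap.

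RELA had 714, 715 and 555 counts in the shADAR1, shHuR and shControl precipitates and 2962, 4561 and 3484 in the inputs, with log2 ratios of −1.84, −1.42 and −1.86. TNIP1 had 808, 2456 and 670 counts in the precipitates and 3871, 13006 and 5282 in the inputs, with ratios of −2.05, −1.15 and −2.19. NFKBIA had 561, 926 and 413 counts in the precipitates and 1830, 2648 and 3020 in the inputs, with ratios of −1.49, −0.26 and −2.08. The edgeR adjusted p over the lines was between 0.000516 and 0.0144 for these 6 genes. The calls of RELB and NFKBIA ended without the shControl line (−1.04 and −0.82), and that of NFKBIA also without the shADAR1 line (−1.35). Without the line as block, NFKBIA (−1.01), NFKBIE (−1.74) and TNIP1 (−1.42) no longer passed. With the GC and length trend removed, the log2 ratios in shADAR1, shHuR and shControl were −0.05, −0.64 and −0.63 for RELB, −0.73, 0.02 and −1.09 for NFKBIA, and −1.78, −0.17 and −1.24 for NFKBIE. By the same correction they were −1.41, −1.46 and −0.96 for RELA, −1.39, −1.06 and −0.94 for TNIP1, and −1.65, −1.36 and −1.41 for NFKB2. RELB was thus within 2-fold of input in every line under that correction, NFKBIA in shADAR1 and shHuR, NFKBIE in shHuR, and RELA and TNIP1 in shControl.

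**Figure D3:**
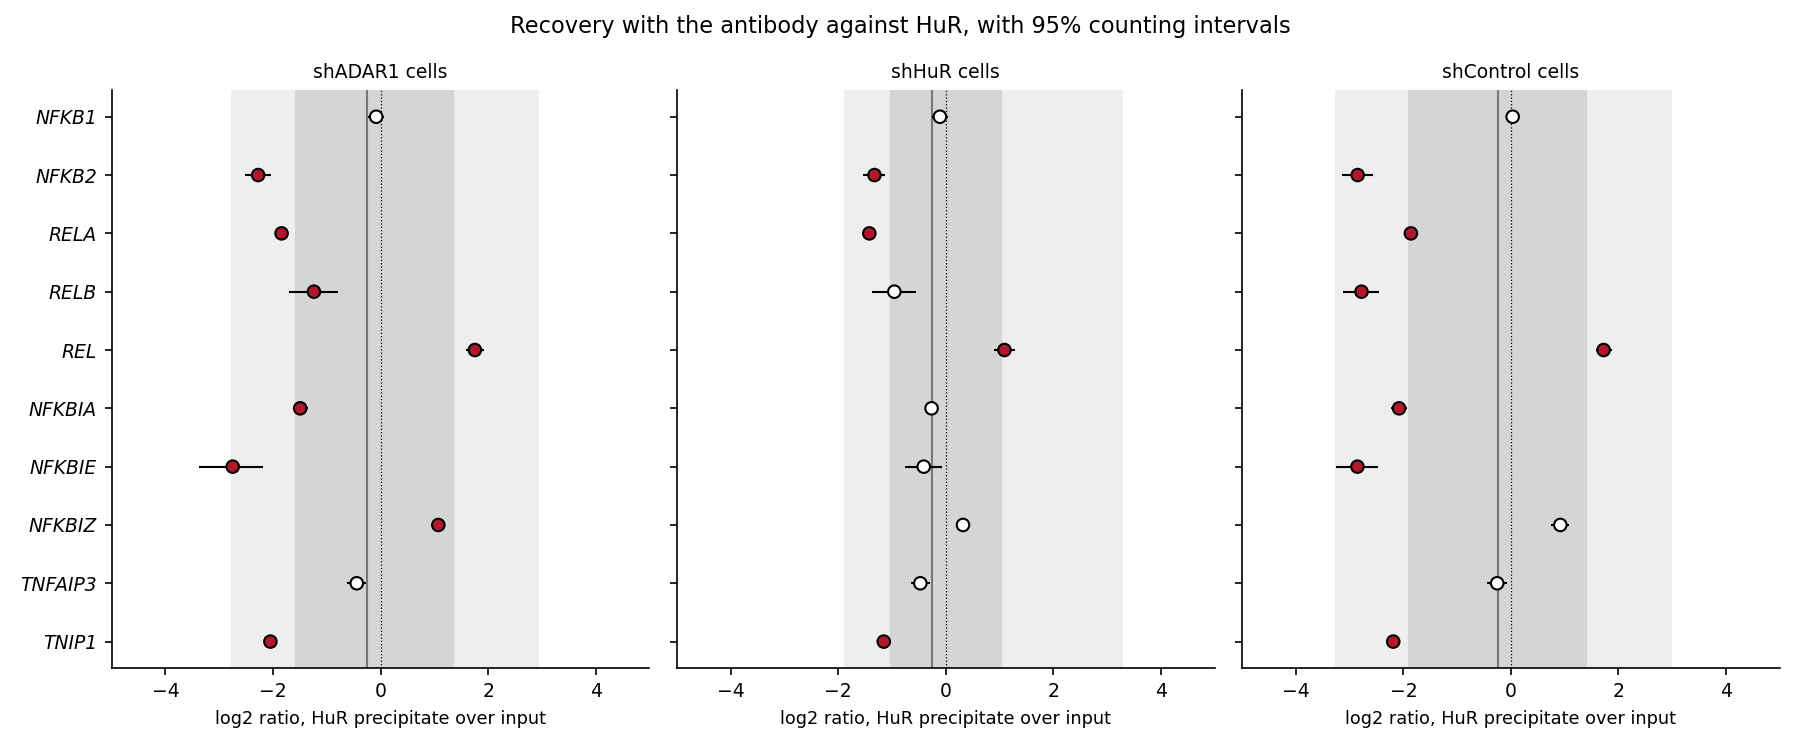
Log2 ratio of HuR precipitate over input for the 10 genes in shADAR1, shHuR and shControl cells, with 95% counting intervals and filled points for genes called at 2-fold. Dark grey bands run between the quartiles of all genes and light grey bands from their 5th to their 95th percentile. REL is the only member called above input in all 3 lines, at 1.76, 1.09 and 1.72.

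The change of enrichment between lines asks how far recovery went with the level of HuR. In shHuR against shControl cells, a 1.5-fold limit called 5 members higher (NFKB2, RELB, NFKBIA, NFKBIE and TNIP1) and 2 lower (REL and NFKBIZ), against 39.4% higher and 23.5% lower of 12468 genes. The 5 called higher were still below input in shHuR, at −1.33, −0.96, −0.26, −0.41 and −1.15 in that order. REL and NFKBIZ were still above it, at 1.09 and 0.32, so each of these ratios moved toward input. REL fell by 0.63 on the log2 scale (−0.87 to −0.39) and NFKBIZ by 0.60 (−0.78 to −0.42). The REL precipitate was lower in shHuR than in shControl, at 20.1 and 36.8 TMM-scaled CPM. The NFKBIZ precipitate was higher, at 128.8 and 20.6 CPM, and its ratio fell because its input rose more, to 103.1 from 10.9 CPM. For RELB the precipitates were 3.01 and 2.78 CPM in shHuR and shControl, and the inputs 5.85 and 19.1. The precipitates of NFKB2, NFKBIA, NFKBIE and TNIP1 were higher in shHuR. Among genes whose mean log2 enrichment in these lines was at least 1, REL was the only member, and 29.4% of 3393 such genes were lower in shHuR. NFKBIE changed most, by 2.45 (1.95 to 2.94). With the GC and length trend removed, NFKBIA and NFKBIE were the 2 members still called (1.11 and 1.07), and REL and NFKBIZ were at −0.28 and −0.58.

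In shADAR1 against shControl cells, RELB (1.54, 0.99 to 2.09) and NFKBIA (0.59, 0.38 to 0.79) were called higher and 0 members lower, against 19.7% higher and 14.2% lower of 12641 genes. Both stayed below input in shADAR1 (−1.24 and −1.49). The RELB precipitate itself was lower in shADAR1 than in shControl, at 1.74 and 2.78 TMM-scaled CPM. Its ratio rose because its input was lower still, at 4.11 CPM in shADAR1 and 19.1 in shControl. REL changed by 0.03 (−0.18 to 0.24) and NFKBIZ by 0.16 (−0.02 to 0.34). With the GC and length trend removed, RELB was at 0.58 and NFKBIA at 0.36, and neither passed. The comparisons of shADAR1 and of shHuR share the shControl precipitate and input.

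Recovery of the members is next set beside the composition of the 3′ UTR. The 3′ UTRs of NFKB2, RELB, TNIP1, NFKBIE and RELA held 43.2%, 43.3%, 44.6%, 45.5% and 48.5% A and T, and all 5 were below input. Those of TNFAIP3, REL, NFKB1, NFKBIA and NFKBIZ held 57.7%, 63.1%, 63.3%, 64.3% and 64.9%. Over all genes in shControl cells, the median log2 enrichment was −2.18 for 3′ UTRs with 40 to 45% A and T (1182 genes) and 0.69 for 60 to 65% (2281 genes). In shHuR cells the same medians were −0.69 and 0.02. NFKBIA was lower than most genes of like composition: in shControl cells it was at −2.08, against a lower quartile of −0.60 for 3′ UTRs with 60 to 65% A and T. It was not alone. NFKBIE was at −2.85 against −2.45 for 45 to 50% in shControl cells, and at −2.75 against −1.90 in shADAR1 cells. NFKB2 was at −2.28 against −2.08 for 40 to 45% in shADAR1 cells, and about level with its quartile in shControl. In shHuR cells NFKB2 and RELA were below theirs, at −1.33 and −1.42 against −1.19 and −1.12.

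**Figure D4:**
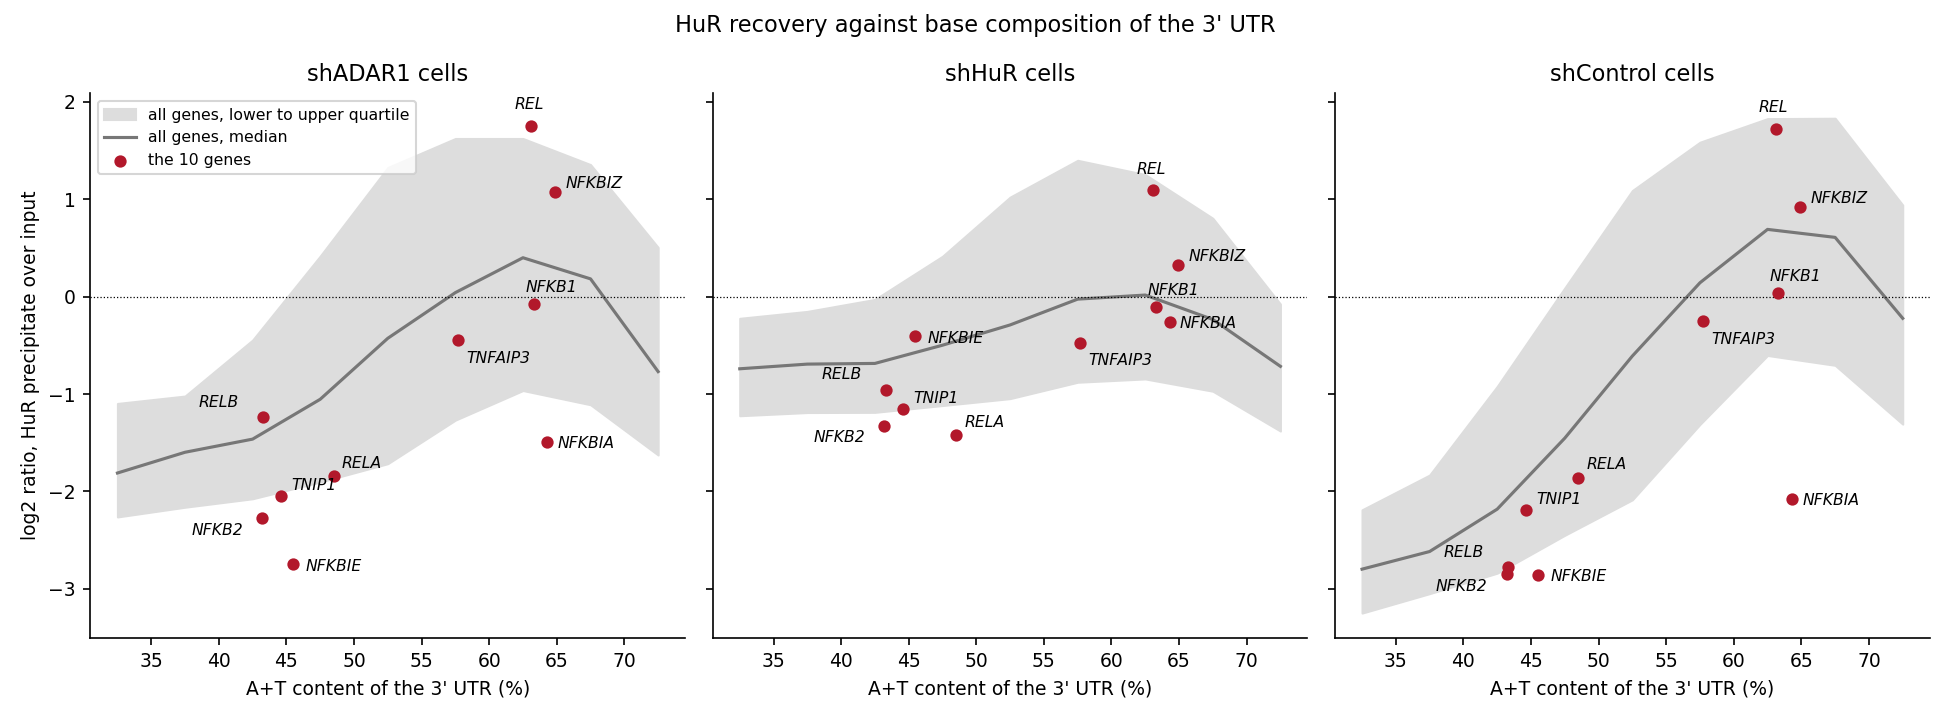
Log2 ratio of HuR precipitate over input (vertical axis) against the A and T content of the 3′ UTR in percent (horizontal axis) in shADAR1, shHuR and shControl cells. Points are the 10 genes, the line is the median of all genes in bins of 5 percentage points and the band runs from the lower to the upper quartile. NFKBIA, at 64.3% A and T, lies below the band in shADAR1 and shControl cells and inside it in shHuR cells.

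The motif copies were counted as well. ATTTA, searched on the RNA strand with overlaps counted, was found in 64.6% of 18882 3′ UTRs, and the longer TTATTTATT, which contains it, in 7.5%. REL, whose 3′ UTR of 9075 bases is the longest, held 25 copies of ATTTA and 1 of TTATTTATT, and 35.1% of 3′ UTRs within 1.25-fold of its length held as many copies or more. TNFAIP3 held 5 copies and 1 of TTATTTATT (43.4% of like length held at least as many), and the printed TNFAIP3 stretch includes that longer motif. NFKBIZ, NFKB1 and NFKBIA held 3 copies each, in 1651, 708 and 502 bases, and NFKB2 held 1 in 148 bases. RELA, RELB, NFKBIE and TNIP1 held 0. NFKBIZ, above input, and NFKBIA, below it, had the same number of copies, at 1.82 and 5.98 per kilobase.

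Over the 8 libraries, the genes whose pattern was most like each member's were taken as those with the smallest root mean square difference of centred log2 CPM, among 9507 genes with at least 50 counts in each library. REL was followed most closely by ARHGEF25 (0.15), LINC00665 (0.25) and IRAK3 (0.26), and TNFAIP3 by CCNYL1 (0.24), CDKN1A (0.26) and PLCB1 (0.27). Nearest to NFKBIZ were PAPPA (0.42), TCAF2 (0.42) and PRKG2 (0.48), beside a root mean square of 1.249 for its own pattern. RELB was nearest to WNK4 and PCIF1 (0.33 each), and RELA to LDOC1 (0.09).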

How the data were processed

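Both experiments were measured by RNA sequencing with the KAPA RNA HyperPrep kit, per the labels' protocols. The deposited expected counts, all whole numbers, are gene estimates from RSEM 1.2.3 on hg19 (the precipitation also lists GRCh37), per the submitters' processing notes. The deposited FPKM values of the RNA-seq served for levels and 1 alternative. No source used here gives the aligner, the annotation release or whether counting used strand, so antisense reads cannot be separated.

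Log2 ratios used TMM scaling within the RNA-seq pair, within the 3 inputs, or over the 6 precipitation libraries, with exact conditional binomial 95% intervals. Changes of enrichment have Poisson intervals. Calls used a prior count of 2. edgeR 4.0.16 (R 4.3.3) quasi-likelihood tests used its filter on low counts and Benjamini-Hochberg adjustment at 0.05 over all genes, and were tested on simulated data. Each SE given with an edgeR change was derived, as the absolute log2 change over the square root of the test's F value. The pairing comes from the labels: libraries of a block share an experiment or a line. Nothing states that libraries came from separate cultures, so p-values measure only the spread between them. DESeq2 1.42.0, other scalings, filters, thresholds and blocks were tried. GENCODE 29 and RefSeq gave symbols, overlaps and sequences, and 52301 IDs had a symbol. All 10 members had enough counts in every comparison. All members were named, pathway genes were named from the 3 largest called ratios per list and comparison, of which the text gives a part, and 3 nearest patterns were sought per member. The members and lists were chosen with earlier results of these data known.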

Additional observations from a re-analysis of the deposited data

Results flagged for a closer look

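A pair of members was picked out because ADAR1 knockdown moved them opposite ways in the 2 experiments, each with a counting interval that leaves out 0. The difference was not tested, since each side rests on 1 library against 1. The share of all genes that moved so was not counted, and IRAK1 did so too, so the pair cannot be called unusual. For NFKBIZ, the log2 ratio in the shADAR1 input over the shControl input exceeded that of KD over Ctrl by 3.02. For TNFAIP3 the same difference was 1.81. The labels give neither the hairpin nor the time after knockdown for either experiment, and ADAR itself was at −2.81 in KD and at −1.56 in the shADAR1 input.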

How the results depend on the processing

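Of the alternatives, removing the trend over GC content and transcript length, which 97.23% to 97.7% of genes could enter, shifted the median of all genes by −0.24 to −0.41 in the precipitates and moved most counts of called members. It gave 3 lower in the RNA-seq, where RELB and NFKBIE passed and REL did not, and left 1 lower in the shADAR1 input and 0 lower in the shHuR input. In the precipitates it left 0 higher in any line and 3 lower in shControl. For the change of enrichment it left 0 higher in shADAR1 and 2 higher and 0 lower in shHuR. It also brought the called REL enrichment in shHuR to −0.13 and the called changes of enrichment in shHuR of RELB to −0.0105 and of TNIP1 to −0.12. Each of these is smaller in size than the shift of the median of all genes by the same correction. That shift was −0.41 in the shHuR precipitate and −0.18 for the change in shHuR, so the signs of these end values cannot be told from it. The moves themselves, from 1.09 for REL, 1.82 for RELB and 1.04 for TNIP1, were larger than the shift. In the precipitates this correction also takes out any HuR recovery that goes with base composition or length. Scaling by total counts shifted the median of all genes in the precipitates by −0.85 in shADAR1, −0.99 in shHuR and −0.86 in shControl. That left 0 members higher in any line and 8 lower in shHuR, and NFKBIZ, at −0.68 in shHuR, moved with the shift. A 1.5-fold limit gave 1 higher and 4 lower in the RNA-seq and 2 higher in the shControl precipitate, and FPKM gave 1 lower. A 2-fold limit for changes of enrichment gave 1 higher in shADAR1 and 0 lower in shHuR. Other shifts of that median over 0.1 were −0.12 with total counts, −0.11 with DESeq2 size factors and −0.18 with the trend removed for the change in shHuR, −0.10 with total counts in the shADAR1 input, and 0.11 with DESeq2 size factors in the shADAR1 precipitate. DESeq2 size factors, a prior count of 0.5 and a minimum of 10 counts moved no count of called members by over 1.5 times.

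In the joint ADAR1 test the count of members stayed at 0 under each alternative run, while all genes gave 92 higher and 24 lower with DESeq2, 140 and 34 with no filter, and 0 and 0 with no replicate block. Each experiment alone has no residual degree of freedom and gives the ratios already listed. In the HuR test, no replicate block gave 1 member higher and 3 lower, with 3020 genes lower in all. Leaving out 1 line gave 0 to 2 members higher and 4 to 6 lower, and 2831 to 5383 genes higher and 3589 to 5863 lower. The cause of these moves was not tested. RELB and NFKBIE, with 28 to 98 precipitate counts, have the widest intervals.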

Other observations

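HuR recovery of the rest of the pathway is given by role, and the genes named here were chosen after their values were seen. Of all 15342 genes, 31.3% were higher in the precipitate and 32.7% lower in the edgeR test over the 3 lines, and several of the counts below are near these shares. Among the receptors and ligands, 4 of 10 were higher and 2 lower. The receptor genes TLR3 (log2 2.65 ± 0.33, edgeR adjusted p = 8.91e-05) and TNFRSF1A (2.6 ± 0.29, edgeR adjusted p = 3.96e-05) led (SE, 6 libraries). Of the textbook targets, 8 of 17 were higher and 3 lower, with SOD2, a mitochondrial antioxidant enzyme, at 2.33 ± 0.24 (edgeR adjusted p = 2.79e-05) and IRF1, a transcription factor, at −1.88 ± 0.38 (edgeR adjusted p = 0.0016).

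Of the IKK complexes and the linear ubiquitin ligase, 0 of 8 were higher and 5 lower. SHARPIN, RBCK1 and RNF31, which together form that ligase, stood at −2.19, −1.60 and −1.48, with edgeR adjusted p of 0.00178, 0.00342 and 0.0104. Of the other inhibitors, 2 of 14 were higher and 8 lower, and of the adaptors and kinases 3 of 18 were higher and 6 lower. IRAK3, the inhibitory member of its kinase family, was higher (1.85 ± 0.36, edgeR adjusted p = 0.00123), and IRAK1 was lower (−1.37 ± 0.39, edgeR adjusted p = 0.0101).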
